A study of Rattus norvegicus with 20 samples.

Results

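Kidneys of rats given tacrolimus were compared with kidneys of rats given only the solvent, across the protein-coding genes. The 12 libraries, 6 per group, were chosen by treatment from the 20 kidney libraries of a study of calcineurin inhibitor nephrotoxicity. All rats were wild-type male Wistar animals aged 10 to 12 weeks. Tacrolimus was delivered for 28 days by a subcutaneous osmotic minipump set for a trough plasma level of 3.5 ng/ml. The control rats carried the same kind of pump filled with the solvent alone, 25% DMSO and 75% PEG500, which the tacrolimus rats also received. RNA came from the entire kidney, so every value is a mixture of all nephron segments, vessels and any tissue attached to the organ. The labels give no measured drug level or kidney function and do not say whether the libraries of a group came from separate rats, so the p-values measure the spread between these kidneys.

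Tacrolimus binds the small immunophilin FKBP12, and the complex blocks calcineurin, a calcium-activated phosphatase best known for switching on NFAT transcription factors in T cells. In the nephron, the distal convoluted tubule takes up salt through the thiazide-sensitive cotransporter, which WNK kinases activate through SPAK. The late part of that segment and the connecting tubule set the final urinary calcium and magnesium through apical TRP channels, cytosolic calbindin and basolateral exit transporters. Patients on tacrolimus are known to develop raised blood pressure, high potassium, magnesium wasting and calcium wasting.

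Values are the authors' FPKM, fragments scaled by transcript length and by a factor per library. That factor followed the library's median ratio to each gene's geometric mean, with a largest deviation of 1.18e-12%, and not its total of fragments. Each library held 31670202 to 39358485 fragments assigned to genes. Of 22250 protein-coding genes listed, 18439 were above 0 in some library and 14599 passed the filter on low values. Genes were compared with limma on log2(FPKM + 1), and a gene was called at a Benjamini-Hochberg adjusted p under 0.05. Values joined by "against" are those of tacrolimus and then vehicle, and ± is the SD of 6 kidneys. Because 1 is added before the logarithm, fold changes of low genes come out smaller than they are. The libraries of 2 kidneys, tacrolimus replicate 6 and vehicle replicate 3, stood apart from the rest, with voom sample quality weights of 0.316 and 0.326, where 1 is typical. The kidney's own markers were abundant in both groups, among them the proximal phosphate transporter Slc34a1 at 1572 against 1537 FPKM (tacrolimus against vehicle means), uromodulin (Umod) at 1718 against 1952 FPKM, and the collecting duct water channel Aqp2 at 134 against 130.5 FPKM. Parvalbumin (Pvalb), the calcium buffer that marks the early distal convoluted tubule, was listed at 0 in all 12 libraries, as were Cldn5, Mfap4, Kcna1 and Ppp3r2; whether these are true zeros or come from the annotation used for counting was not tested.

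The tacrolimus kidneys differed from the vehicle kidneys in few genes, and nearly all of those were lower. Of 14599 protein-coding genes, 42 were called lower (0.288%) and 3 were called higher (0.0205%). The median log2 fold change of all protein-coding genes was 0.0003, and 5% and 95% of genes lay below -0.22 and 0.18. At an unadjusted p under 0.05, 718 genes were lower and 537 were higher, together 8.6% of those tested. The 6 values of one group did not overlap the 6 of the other in 143 genes, 0.98% of those tested, 100 of them lower with tacrolimus. Of the 45 called genes, 43 had ranges that did not overlap, the exceptions being Scd and Cidea. With both libraries that stood apart left out, 49 genes were called, 36 of them among the 45. The counts depended on the model and scaling: voom with sample quality weights called 118 genes, 93 lower and 25 higher, and rescaling to TPM or to the upper quartile called 7 higher in each case.

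**Figure D1:**
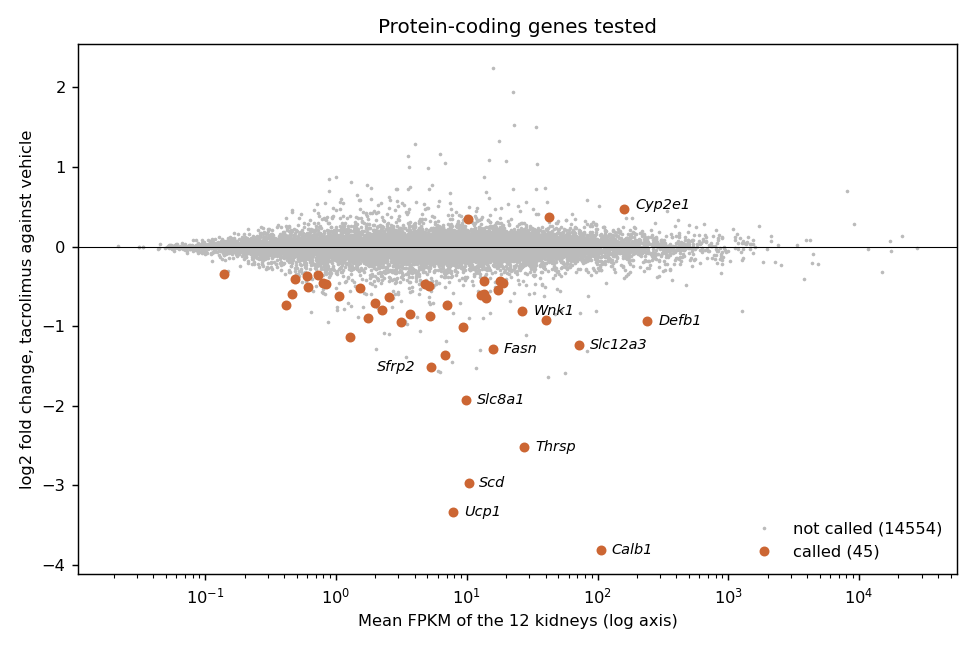
Log2 fold change between tacrolimus and vehicle kidneys, on the log2(FPKM + 1) scale, against the mean FPKM of the 12 kidneys on a log axis, with 1 point per protein-coding gene tested. The 45 called genes are drawn large; Calb1 lies lowest at -3.81, and the 3 called higher lie between 0.34 and 0.48.

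With 1 FPKM added before the logarithm, the gene with the lowest log2 fold change was Calb1, of the distal tubule. With a pseudocount of 0.1, or with voom, Ucp1 and Scd lay lower than Calb1, and with voom Otop1 did too. Gene positions below are as deposited, on rn6. Calbindin-D28k (Calb1, chr5:29538380-29562773), the protein that carries calcium across the cytosol of distal tubule cells, lay between 12.3 and 14.9 FPKM (median 12.9) in the tacrolimus kidneys and between 171 and 234 FPKM (median 198) in the vehicle kidneys. No tacrolimus kidney came near the lowest vehicle kidney. The group means were 13.1 ± 0.921 and 198 ± 27.9 FPKM (SD, n = 6), a 15.1-fold lower level (log2 fold change -3.81, SE 0.0848, limma adjusted p = 1.73e-11). The basolateral sodium-calcium exchanger Slc8a1 (chr6:4258991-4520604), which moves calcium out of the cell towards the blood, lay between 2.8 and 4.14 FPKM (median 3.57) in the tacrolimus kidneys and between 14.1 and 19.2 FPKM (median 15.4) in the vehicle kidneys. It stood at 21.8% of the vehicle mean (log2 fold change -1.92, SE 0.0917, limma adjusted p = 1.56e-07). The apical calcium channel Trpv5 (chr4:70947717-70974006), through which calcium enters, lay between 1.04 and 1.67 FPKM (median 1.22) in the tacrolimus kidneys and between 2.13 and 3.5 FPKM (median 2.66) in the vehicle kidneys. Its mean was 47.1% of the vehicle mean (log2 fold change -0.70, limma adjusted p = 0.00162). Entry channel, cytosolic carrier and exit exchanger thus were all lower, with ranges that did not overlap.

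These 3 were the called members of a list of 16 calcium handling genes, of which 15 were tested and none was called higher. Over all protein-coding genes tested, 0.288% were called lower. Of the 15 on the list, 8 lay below 0 and 7 above. The list's median log2 fold change was -0.01, beside 0.0003 over all protein-coding genes. The calcitriol receptor Vdr, which drives transcription of calbindin and Trpv5, missed the threshold at 28.2 ± 2.08 against 37 ± 4.61 FPKM (limma adjusted p = 0.081), although its 2 groups did not overlap. Values of the calcitriol-degrading enzyme Cyp24a1 ran from 27.8 to 67.8 FPKM with tacrolimus and from 2.79 to 31.8 FPKM with vehicle (means 48.2 and 19.1 FPKM, limma adjusted p = 0.247). The calcitriol-producing enzyme Cyp27b1 averaged 2.04 ± 1.01 against 0.867 ± 0.35 FPKM (limma adjusted p = 0.368). Neither enzyme passed the test, and the groups overlapped in both. Klotho (Kl), the co-receptor for FGF23, averaged 52.5 ± 6.55 against 63.9 ± 2.4 FPKM (limma adjusted p = 0.147). The plasma membrane calcium pump Atp2b4 averaged 4.51 ± 0.572 against 6.76 ± 1.38 FPKM (limma adjusted p = 0.147). The parathyroid hormone receptor Pth1r was at 169 ± 23.7 against 169.9 ± 28.4 FPKM, with a 95% interval for its log2 fold change of -0.26 to 0.24.

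Of 15 WNK pathway and distal salt transport genes tested, the cotransporter of the distal convoluted tubule, Wnk1 and Klhl3 were called lower. The other 12 were not called, and over all protein-coding genes tested 0.288% were called lower. The thiazide-sensitive sodium chloride cotransporter Slc12a3 (chr19:11106033-11144641) lay between 29.5 and 56 FPKM (median 44.7) in the tacrolimus kidneys and between 93.3 and 108 FPKM (median 101) in the vehicle kidneys. Its mean was 42.6% of the vehicle mean (log2 fold change -1.24, SE 0.122, limma adjusted p = 0.000159). The gap between the groups, from 56 to 93.3 FPKM, was wider than the range within either group. The kinase gene Wnk1 (chr4:152452848-152578446), whose short kidney form is made in this segment, lay between 18.1 and 20.8 FPKM (median 18.9) in the tacrolimus kidneys and between 31.1 and 37.3 FPKM (median 34.2) in the vehicle kidneys. The 6 tacrolimus values were close together, at 55.8% of the vehicle mean (log2 fold change -0.81, limma adjusted p = 1.69e-05). A level per gene does not separate the short form from the long one. Klhl3 (chr17:6935860-7029240), the adaptor that delivers WNK kinases to degradation, lay between 2.85 and 3.71 FPKM (median 3.48) in the tacrolimus kidneys and between 6.1 and 8.17 FPKM (median 6.94) in the vehicle kidneys. It stood at 47.9% of the vehicle mean (log2 fold change -0.88, limma adjusted p = 9.93e-05).

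The median of that list was -0.12, with 11 of 15 members below 0, and none was called higher. Over all protein-coding genes tested, the median was 0.0003 and 49.9% lay below 0. The kinase that phosphorylates the cotransporter, SPAK (Stk39), averaged 11.4 ± 0.573 against 13.2 ± 1.18 FPKM (limma adjusted p = 0.333). Wnk4, the other main WNK kinase of the segment, averaged 4.65 ± 0.663 against 4.71 ± 0.745 FPKM (limma adjusted p = 0.988). The basolateral potassium channel subunit Kcnj10 was at 10.9 ± 1.44 against 13.2 ± 1.64 FPKM (limma adjusted p = 0.446), and none of these 3 passed. Its partner subunit Kcnj16 averaged 240.0 ± 29.8 against 242 ± 25.4 FPKM, with a 95% interval of -0.21 to 0.18 for the log2 fold change.

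Of 13 magnesium handling genes tested, 3 were called lower, all of them on the distal convoluted tubule list too. The apical magnesium channel Trpm6 (chr1:234479289-234596971) lay between 2.21 and 2.55 FPKM (median 2.29) in the tacrolimus kidneys and between 4.2 and 5.75 FPKM (median 5.12) in the vehicle kidneys. Its mean was 46.3% of the vehicle mean (log2 fold change -0.85, limma adjusted p = 9.53e-05). Epidermal growth factor (Egf, chr2:68820615-68895920), made in the distal nephron and known to raise Trpm6 activity, lay between 22.3 and 30.7 FPKM (median 27.6) in the tacrolimus kidneys and between 47.5 and 59.8 FPKM (median 51.8) in the vehicle kidneys. Both groups were tight and stood well apart, the tacrolimus mean being 51.8% of the vehicle mean (log2 fold change -0.93, limma adjusted p = 9.53e-05). Cnnm2 (chr1:266530477-266649398), a basolateral protein needed for magnesium reabsorption, lay between 9.9 and 11.1 FPKM (median 10.7) in the tacrolimus kidneys and between 15 and 17.6 FPKM (median 16.6) in the vehicle kidneys. It was at 64.3% of the vehicle mean (log2 fold change -0.59, limma adjusted p = 9.53e-05). None of the 13 was called higher, 9 lay below 0, and the median was -0.05. Over all protein-coding genes tested, 0.288% were called lower, 49.9% lay below 0 and the median was 0.0003. The sodium pump gamma subunit Fxyd2, in which a dominant mutation causes magnesium wasting, averaged 4425 ± 322 against 5210.0 ± 908 FPKM (limma adjusted p = 0.718). The broadly expressed channel Trpm7 averaged 15.6 ± 1.74 against 17.4 ± 2.55 FPKM (limma adjusted p = 0.792), and neither gene passed the test.

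**Figure D2:**
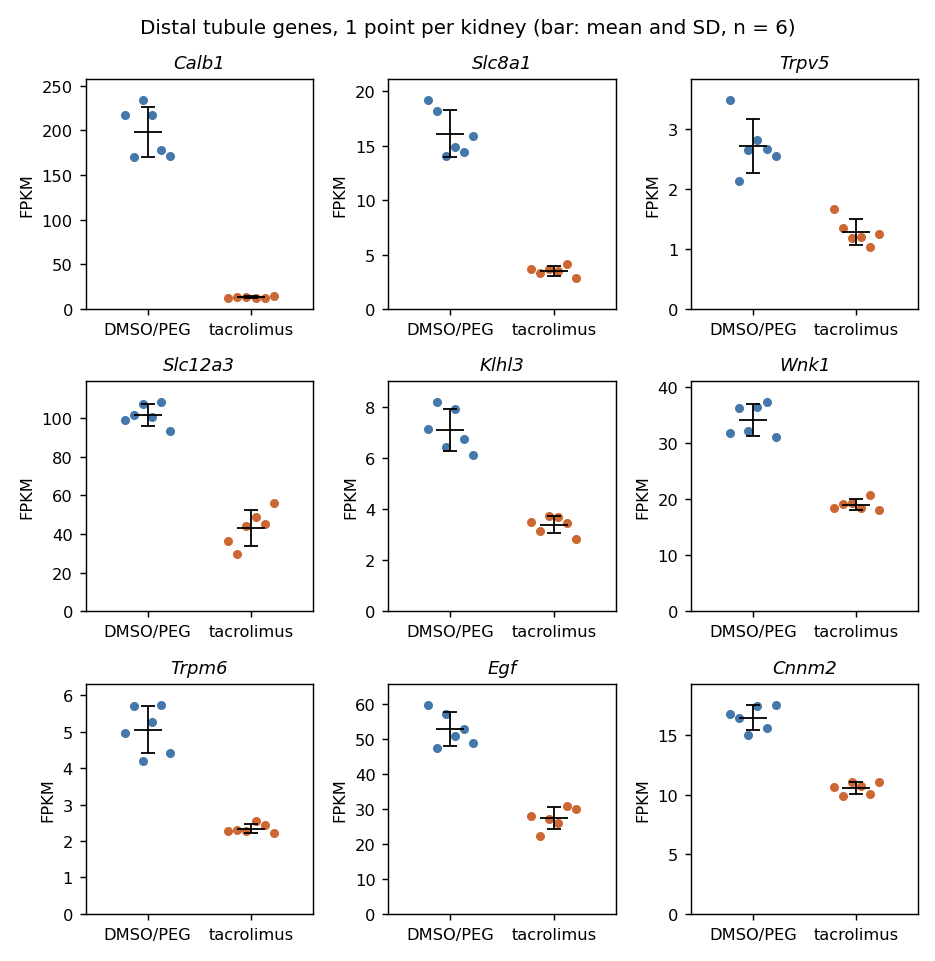
FPKM of the 9 called genes of the distal convoluted and connecting tubule lists in each kidney, with 6 vehicle and 6 tacrolimus points per panel and a bar for the mean and SD. No panel has overlapping groups, and Calb1 shows the widest gap, 12.3 to 14.9 against 171 to 234 FPKM.

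Among the distal genes the size of the difference varied. Tacrolimus means ran from 6.62% of the vehicle mean for Calb1 and 21.8% for Slc8a1 to 55.8% for Wnk1 and 64.3% for Cnnm2. The ratio of Calb1 to Slc12a3 FPKM within a kidney was 0.254 to 0.437 with tacrolimus and 1.65 to 2.2 with vehicle. This ratio was chosen after its values were seen and was not tested. Over the distal convoluted tubule list, 7 of 14 members tested were called lower and none higher, 13 lay below 0 and the median was -0.42. Over all protein-coding genes tested, 0.288% were called lower, 49.9% lay below 0 and the median was 0.0003. In whole kidney RNA, fewer cells of a type and less RNA per cell cannot be told apart. The 7 uncalled members included the phosphatase inhibitor Ppp1r1a at 104 ± 7.27 against 122 ± 15.1 FPKM and the transcription factor Sall3 at 1.11 ± 0.1 against 1.28 ± 0.177 FPKM (limma adjusted p = 0.419 and 0.696). All 9 called genes of the distal lists were also called in each of the 23 alternative settings, each library left out in turn included.

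The 250 bases before the annotated start of each called distal gene were searched on both strands for GGAAA, the core of the NFAT site, AGGTCA, a nuclear receptor half-site, and TATAAA. NFAT factors are the classical calcineurin targets, which is why these sequences are shown. RefSeq's promoter table for the assembly GRCr8 held 8 of the 9 genes, and Calb1 was not among them. GGAAA was found in 5 of the 8 genes, where 56.9% of 33469 promoters of the same length hold it. AGGTCA was found in none, against 14.1% of promoters, and TATAAA in Slc12a3 alone, against 12.9%. No printed window held more than 1 match, so no matches overlap. The sequences of 5 genes with a match follow (Trpm6, with 3 annotated starts, is left out), 5′ to 3′ on the gene's strand, with the match in capitals (TTTCC is GGAAA on the opposite strand). A match is a run of letters and no measure of binding.
Slc12a3, chr19:10675051-10675300, minus strand: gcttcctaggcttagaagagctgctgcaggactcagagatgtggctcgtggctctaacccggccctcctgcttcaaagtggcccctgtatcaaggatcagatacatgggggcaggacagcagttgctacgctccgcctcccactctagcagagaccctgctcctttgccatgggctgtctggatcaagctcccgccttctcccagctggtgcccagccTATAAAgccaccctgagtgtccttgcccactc
Slc8a1, chr6:19023309-19023558, plus strand: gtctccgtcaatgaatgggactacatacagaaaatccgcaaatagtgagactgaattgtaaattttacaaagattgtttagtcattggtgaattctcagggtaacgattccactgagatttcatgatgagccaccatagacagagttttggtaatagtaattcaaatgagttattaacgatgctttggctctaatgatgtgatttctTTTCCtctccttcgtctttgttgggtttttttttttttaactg
Trpv5, chr4:71529383-71529632, minus strand: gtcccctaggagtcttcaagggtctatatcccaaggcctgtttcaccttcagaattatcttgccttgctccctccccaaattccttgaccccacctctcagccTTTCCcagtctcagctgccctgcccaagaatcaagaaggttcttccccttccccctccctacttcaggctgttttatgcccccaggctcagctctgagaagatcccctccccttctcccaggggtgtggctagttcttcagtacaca
Egf, chr2:220976298-220976547, minus strand: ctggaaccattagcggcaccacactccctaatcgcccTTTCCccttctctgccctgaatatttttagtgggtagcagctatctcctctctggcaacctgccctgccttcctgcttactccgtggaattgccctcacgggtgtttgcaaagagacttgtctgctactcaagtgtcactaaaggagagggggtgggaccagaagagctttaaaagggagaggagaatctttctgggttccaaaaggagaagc
Klhl3, chr17:6528237-6528486, plus strand: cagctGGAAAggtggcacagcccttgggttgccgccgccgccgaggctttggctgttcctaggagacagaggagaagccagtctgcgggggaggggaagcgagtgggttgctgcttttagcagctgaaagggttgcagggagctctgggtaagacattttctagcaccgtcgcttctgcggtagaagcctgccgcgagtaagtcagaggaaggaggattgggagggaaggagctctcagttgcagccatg
The TATAAA of Slc12a3 begins 32 bases before the start. The GGAAA match of Slc8a1 begins 43 bases before its start, and those of Trpv5, Egf and Klhl3 begin 147, 213 and 245 bases before theirs.

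The connecting tubule list gave 3 called lower of 12 tested, namely Calb1, Slc8a1 and Trpv5 from the calcium route. None was called higher, and the median was -0.14, beside 0.288% called lower and a median of 0.0003 over all protein-coding genes. Tissue kallikrein (Klk1), a protease secreted by connecting tubule cells, lay on the other side of 0 at 292 ± 47.2 against 204 ± 33.9 FPKM (log2 fold change 0.52, limma adjusted p = 0.147). Hsd11b2, the enzyme that shields the mineralocorticoid receptor from glucocorticoids, averaged 158 ± 14.9 against 139 ± 20.4 FPKM (limma adjusted p = 0.605). Neither passed the test. Rat Klk1 belongs to a family of near-identical kallikreins, between which counting could split fragments.

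No gene was called on the lists of the proximal tubule, thin limb, thick ascending limb, macula densa, principal cell or intercalated cell. On the convoluted proximal tubule list, which covers glucose, phosphate and protein reabsorption, 14 genes were tested and the median was 0.02. The bicarbonate cotransporter Slc4a4 had the smallest p there, at 96 ± 15.9 against 114 ± 15.9 FPKM (limma adjusted p = 0.617). The phosphate transporter Slc34a1 had a 95% interval of -0.11 to 0.18 around a log2 fold change of 0.03. On the thick ascending limb list, with 14 tested and a median of -0.03, the loop cotransporter Slc12a1 averaged 250.3 ± 24 against 271 ± 17.1 FPKM (95% interval of the log2 fold change -0.27 to 0.03). The potassium channel Kcnj1 averaged 96.9 ± 3.7 against 110.3 ± 10.8 FPKM (limma adjusted p = 0.413). Slc12a1 and Slc12a3 are related cotransporters of neighbouring segments, the second was called and the first was not, and the difference between them was not tested.

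Principal cells of the collecting duct reabsorb sodium through the channel ENaC and water through aquaporins. The channel's alpha subunit Scnn1a ranged from 22.9 to 26.1 with tacrolimus and from 25.8 to 35.7 FPKM with vehicle (log2 fold change -0.33, limma adjusted p = 0.107). The basolateral water channel Aqp4 averaged 5.48 ± 1.39 against 8.13 ± 1.16 FPKM (limma adjusted p = 0.147), while the apical channel Aqp2 averaged 134 ± 14 against 130.5 ± 19.4 FPKM (limma adjusted p = 0.947). None of the 14 genes tested on the list passed, and its median was -0.04. Of 16 intercalated cell genes, which secrete acid or base, 13 lay above 0 with a median of 0.11. The exchanger Slc26a7 was the one member whose groups did not overlap, at 1.86 ± 0.133 against 2.2 ± 0.159 FPKM, and the ammonia transporter Rhbg averaged 30.4 ± 12 against 21.1 ± 1.64 FPKM (limma adjusted p = 0.399 and 0.445).

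**Figure D3:**
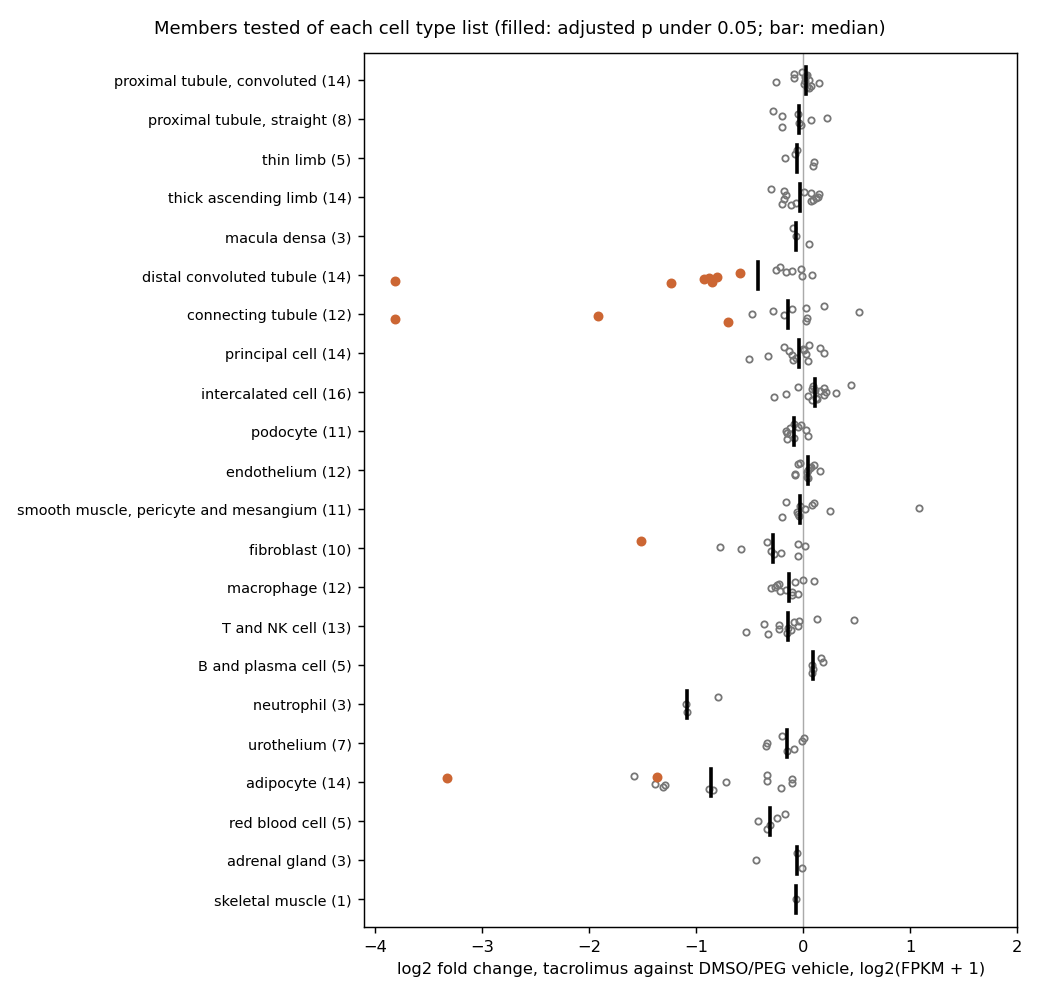
Log2 fold change between tacrolimus and vehicle kidneys of every tested member of 22 cell type lists, with the number tested in brackets, called genes filled and a bar at each median. The filled points lie in the distal convoluted tubule, connecting tubule, fibroblast and adipocyte rows, all to the left of 0.

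Glomerular and vascular markers had no call. The 11 podocyte genes had a median of -0.09, and nephrin (Nphs1), a slit diaphragm protein, averaged 11.9 ± 1.31 against 13.4 ± 1.15 FPKM (limma adjusted p = 0.617). The 12 endothelial genes had a median of 0.04, and Plvap, the diaphragm protein of fenestrated capillaries, averaged 103 ± 12.4 against 92.4 ± 9.02 FPKM (limma adjusted p = 0.696). None of 9 tested genes of the angiotensin and aldosterone system was called, 6 lay above 0, and the median was 0.05.

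Among interstitial genes, Sfrp2 (chr2:182723854-182731764), a secreted Wnt antagonist made by fibroblasts, lay between 1.77 and 3.04 FPKM (median 2.12) in the tacrolimus kidneys and between 5.84 and 12 FPKM (median 8.1) in the vehicle kidneys. Its mean was 27% of the vehicle mean (log2 fold change -1.51, SE 0.141, limma adjusted p = 0.000104). It was the called member of 10 fibroblast genes tested, of which 9 lay below 0 with a median of -0.28. The matrix protein periostin (Postn) averaged 0.586 ± 0.496 against 1.73 ± 0.78 FPKM, lumican (Lum) 1.09 ± 0.344 against 2.18 ± 0.749 FPKM and collagen I (Col1a1) 12.6 ± 0.991 against 15.4 ± 1.97 FPKM (limma adjusted p = 0.248, 0.211 and 0.258). None of these passed. Sfrp2 was also the called member of 15 Wnt ligand and antagonist genes, whose median was -0.02. The related antagonist Frzb averaged 22.8 ± 3.43 against 18.1 ± 3.29 FPKM (limma adjusted p = 0.436).

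Fat and lipid synthesis genes formed the second group of lower calls. Ucp1 (chr19:24456976-24464807), the uncoupling protein of brown and beige fat, lay between 0 and 2.45 FPKM (median 0.105) in the tacrolimus kidneys and between 6.19 and 25.8 FPKM (median 15.7) in the vehicle kidneys. The highest tacrolimus kidney was below the lowest vehicle kidney, at 4.09% of the vehicle level in the means (log2 fold change -3.33, SE 0.389, limma adjusted p = 0.000843). With limma voom without sample weights, on the fragments recovered from the FPKM, its adjusted p was 0.0512. Thrsp (chr1:162381253-162385575), a regulator of fatty acid synthesis in liver and fat, lay between 3.62 and 15.4 FPKM (median 5.72) in the tacrolimus kidneys and between 29.4 and 67.5 FPKM (median 45.5) in the vehicle kidneys. It stood at 16.9% of the vehicle mean (log2 fold change -2.52, limma adjusted p = 0.00361). Fatty acid synthase (Fasn, chr10:109987735-110005901) lay between 7.55 and 10.5 FPKM (median 8.57) in the tacrolimus kidneys and between 17.8 and 29.9 FPKM (median 22.8) in the vehicle kidneys. Its mean was 37.9% of the vehicle mean (log2 fold change -1.29, limma adjusted p = 9.53e-05), and the groups did not overlap.

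Stearoyl-CoA desaturase (Scd, chr1:264160129-264172729), which makes monounsaturated fatty acids, lay between 0.21 and 7.92 FPKM (median 0.467) in the tacrolimus kidneys and between 6.03 and 38 FPKM (median 14.3) in the vehicle kidneys. Tacrolimus replicate 3 held the highest value of its group and overlapped the vehicle range. The log2 fold change was -2.97 (limma adjusted p = 0.0378), but the call was lost in 12 of 23 alternatives, 9 of which left out 1 library, with adjusted p up to 0.118. The lipid droplet protein Cidea (chr18:63098144-63108051) lay between 2.19 and 5.52 FPKM (median 3.02) in the tacrolimus kidneys and between 4.53 and 15 FPKM (median 10.5) in the vehicle kidneys. It too overlapped (log2 fold change -1.36, limma adjusted p = 0.0288) and lost its call in 12 of 23 alternatives, 9 of them without 1 library, with adjusted p up to 0.105.

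Of 14 lipogenesis genes tested, Fasn, Scd and Thrsp were called lower and none higher, with a median of -0.25, where 0.288% of all protein-coding genes were called lower and their median was 0.0003. Acetyl-CoA carboxylase (Acaca), which supplies the malonyl-CoA used by Fasn, averaged 2.67 ± 0.256 against 3.74 ± 0.418 FPKM without overlap between the groups (limma adjusted p = 0.0662). ATP-citrate lyase (Acly) averaged 28.9 ± 2.37 against 34.4 ± 1.96 FPKM (limma adjusted p = 0.141), and neither passed. Of 14 adipocyte genes tested, Ucp1 and Cidea were called lower, all 14 lay below 0 and the median was -0.86, where 49.9% of all protein-coding genes lay below 0 and 0.288% were called lower. The brown fat subunit Cox8b averaged 2.5 ± 1.27 against 9.91 ± 4.74 FPKM (limma adjusted p = 0.0537). The fat hormone resistin (Retn) averaged 1.57 ± 1.17 against 5.35 ± 1.46 FPKM (limma adjusted p = 0.0513). Adiponectin (Adipoq), the defining hormone of fat cells, lay between 5.36 and 22.8 FPKM (median 7.32) in the tacrolimus kidneys and between 7.87 and 27.6 FPKM (median 19.6) in the vehicle kidneys, so the groups overlapped (log2 fold change -0.84, limma adjusted p = 0.558).

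The summed FPKM of the adipocyte list did not pass the test after adjustment, at 108 ± 53.5 with tacrolimus and 234 ± 83.3 with vehicle (SD, n = 6, exact 2-sided permutation p = 0.013, adjusted p over 9 library measures = 0.117). The sum ran from 62.5 to 186 FPKM with tacrolimus and from 115 to 359.8 FPKM with vehicle, so the groups overlapped. Adipoq and perilipin 1 (Plin1) were above 0 in all 12 kidneys. The part of the adipocyte sum in the results for Ucp1, Cidea, Scd, Thrsp and Fasn was not tested. Within a kidney, the ratio of Ucp1 to Adipoq FPKM was 0 to 0.275 with tacrolimus and 0.346 to 1.22 with vehicle, and that of Thrsp to Adipoq was 0.593 to 0.993 against 1.64 to 3.89. The groups overlapped in the other 6 ratios to Adipoq computed. These were 0.332 to 1.69 against 0.996 to 2.49 for Fasn, 0.0391 to 0.422 against 0.412 to 1.38 for Scd, and 0.154 to 0.546 against 0.253 to 1.02 for Cidea. For Cox8b the ratio was 0.0555 to 0.564 against 0.228 to 0.934, for Fabp4 3.9 to 6.21 against 5.03 to 7, and for Plin1 0.187 to 0.304 against 0.246 to 0.353. These ratios were chosen after their values were seen and carry no test. Tacrolimus replicates 1 and 3, with Adipoq at 22.8 and 18.8 FPKM, had Ucp1 at 0.19 and 1.05 FPKM. With both libraries that stood apart left out, 1 adipocyte gene was called.

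**Figure D4:**
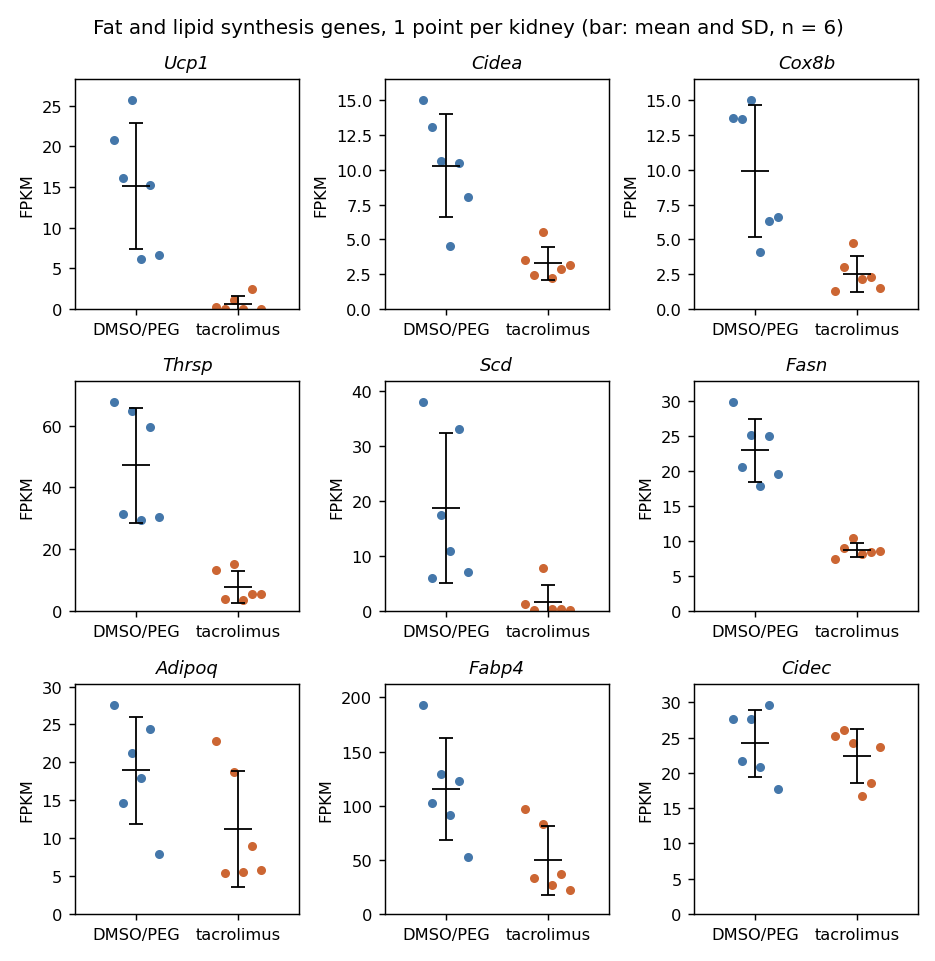
FPKM of 9 fat and lipid synthesis genes in each kidney, with 6 vehicle and 6 tacrolimus points per panel and a bar for the mean and SD. Ucp1, Thrsp and Fasn separate the groups, whereas Scd, Cidea, Cox8b, Adipoq, Fabp4 and Cidec overlap.

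Most of the remaining called genes lay on none of the lists. The beta-defensin Defb1 (chr16:75294376-75309176), an antimicrobial peptide of the distal nephron, lay between 139 and 185 FPKM (median 167) in the tacrolimus kidneys and between 290.1 and 382 FPKM (median 293) in the vehicle kidneys. It was the called gene with the highest mean over the 12 kidneys and stood at 52% of the vehicle mean (log2 fold change -0.94, SE 0.0886, limma adjusted p = 0.000117). The nearby Defb9 (chr16:75176247-75179089) ran from 0 to 0.96 FPKM with tacrolimus and from 1.4 to 2.42 FPKM with vehicle (log2 fold change -1.14, limma adjusted p = 0.0031). Both defensins were lower in all 6 tacrolimus kidneys than in any vehicle kidney, but Defb9 lost its call with a pseudocount of 0.1 and with voom without sample weights, with adjusted p up to 0.0634. The ATP and ADP receptor P2ry1 averaged 1.79 ± 0.317 against 4.45 ± 1.11 FPKM (limma adjusted p = 0.0031). The monocarboxylate transporter family member Slc16a5 averaged 5.03 ± 0.447 against 9.09 ± 1.15 FPKM (limma adjusted p = 0.000631). The heparan sulphate proteoglycan glypican 3 (Gpc3) averaged 13.9 ± 1.47 against 20.7 ± 1.59 FPKM (limma adjusted p = 0.00252). None of the 3 had overlapping groups.

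Further genes on none of the lists were called lower. Capn6, a calpain family member without protease activity, averaged 0.927 ± 0.294 against 2.56 ± 0.251 FPKM. The kinase genes Stk32a and Prkd1 averaged 1.38 ± 0.302 against 3.14 ± 0.464 FPKM and 4.08 ± 0.153 against 6.19 ± 0.311 FPKM. Prps2, which makes the nucleotide precursor PRPP, averaged 10.8 ± 1.49 against 17.4 ± 1.55 FPKM. All 4 were called in every alternative run, with limma adjusted p from 0.000304 for Prkd1 to 0.00308 for Prps2 in the fit of all 12 libraries. The transglutaminase Tgm3 averaged 0.327 ± 0.107 against 0.889 ± 0.0625 FPKM and LOC108348190, an unnamed locus, 5.86 ± 1.02 against 12.8 ± 2.06 FPKM (limma adjusted p = 0.000422 and 0.000991). Hspbap1 averaged 10 ± 0.88 against 15.8 ± 2.36 FPKM, and the acyl-CoA thioesterase Acot9 15.9 ± 1.46 against 22 ± 1.82 FPKM (limma adjusted p = 0.00934 and 0.0106). The aldo-keto reductase Akr1c15 averaged 0.612 ± 0.174 against 1.49 ± 0.31 FPKM, and the collagen galactosyltransferase Colgalt2 1.77 ± 0.271 against 3.31 ± 0.671 FPKM (limma adjusted p = 0.00924 and 0.0169). Colgalt2 lost its call in 4 of 23 alternatives, 3 of them without 1 library, with adjusted p up to 0.114, while Acot9 and Akr1c15 lost theirs in 2 and 1.

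Hexokinase 2 (Hk2), the insulin-responsive hexokinase, was the called member of 13 glycolysis genes. It lay between 0.956 and 1.21 FPKM (median 1.05) in the tacrolimus kidneys and between 1.58 and 2.81 FPKM (median 1.87) in the vehicle kidneys, and its log2 fold change was -0.52 (limma adjusted p = 0.0215, up to 0.0689 in the alternatives, with the call lost in 5 of 12 cases without 1 library). Glycogen synthase 2 (Gys2), the liver form, lay at 0.049 to 0.322 against 0.383 to 1.21 FPKM (limma adjusted p = 0.033, up to 0.105 in the alternatives, with the call lost in 9 of 12 cases without 1 library). The prostaglandin E2 receptor Ptger4, a relaxant receptor of vessels and glomeruli, lay between 3.1 and 4.34 FPKM (median 3.89) in the tacrolimus kidneys and between 4.5 and 6.31 FPKM (median 6.08) in the vehicle kidneys. Its log2 fold change was -0.48 (limma adjusted p = 0.0378), and the call was lost in 15 of 23 alternatives, 11 of them without 1 library, with adjusted p up to 0.106. It was the called member of 17 endothelin, nitric oxide and prostaglandin genes, whose median was -0.07. Endothelial nitric oxide synthase (Nos3) averaged 2.25 ± 0.406 against 2.82 ± 0.422 FPKM and did not pass (limma adjusted p = 0.48).

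The other lower calls were of genes under 1 FPKM in the tacrolimus kidneys or close to the threshold. The proton channel Otop1 had 1 fragment in all tacrolimus kidneys together and 106 in the vehicle kidneys, a depth-scaled ratio of 112 (95% interval 19.7 to 4470, counting error only). It could pass the filter on low values only through the 6 vehicle kidneys. Entry to the test thus already required the equivalent of at least 10 fragments in each of them. The olfactory receptor gene Olr1104 lay at 0 to 0.166 against 0.516 to 1.12 FPKM (limma adjusted p = 0.000159). Tex14, Ropn1, Trim66, Synpo2l and Tmem266 had tacrolimus means between 0.277 and 0.539 FPKM, at 39.7% to 54.1% of their vehicle means, with limma adjusted p from 0.00289 to 0.0288. Trim66, Synpo2l and Tmem266 lost their calls without 1 library in 7, 8 and 4 of 12 cases; over all alternatives, the replicate block included, their adjusted p reached 0.114, 0.0988 and 0.114. Ropn1 lost its call with voom without sample weights and with both libraries that stood apart left out, with adjusted p up to 0.0572. Sgpp2, a sphingosine phosphate phosphatase, averaged 11.4 ± 1.17 against 15.7 ± 1.57 FPKM, and Folh1, a folate-releasing carboxypeptidase, 15.1 ± 1.98 against 20.5 ± 1.3 FPKM (limma adjusted p = 0.0288 and 0.0491). The calls of Sgpp2 and Folh1 were lost in 11 and 14 of 23 alternatives, with adjusted p up to 0.151 in each. Olr1104, Akr1c15, Scd and the defensins belong to gene families, between whose members counting could split fragments.

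The 3 genes called higher changed by small amounts. Cyp2e1, an ethanol-metabolising cytochrome P450, lay between 169.7 and 201 FPKM (median 184) in the tacrolimus kidneys and between 108 and 163 FPKM (median 134) in the vehicle kidneys. The mean was 1.39-fold that of the vehicle kidneys (log2 fold change 0.48, limma adjusted p = 0.0288). The lysosomal sialic acid exporter Slc17a5 lay between 43.3 and 51.8 FPKM (median 47.9) in the tacrolimus kidneys and between 31.2 and 40.8 FPKM (median 36.5) in the vehicle kidneys (limma adjusted p = 0.0384). The cell cycle kinase Cdk20 lay between 10.8 and 12.5 FPKM (median 11.6) in the tacrolimus kidneys and between 7.86 and 9.86 FPKM (median 9.12) in the vehicle kidneys (limma adjusted p = 0.0384). No group overlapped, but the calls were lost in 11, 13 and 11 of 23 alternatives, with adjusted p up to 0.151, 0.114 and 0.136. Leaving out 1 library ended them in 8, 9 and 10 of 12 cases. Cyp2e1 was the called member of 16 cytochrome P450 genes, of which 12 lay above 0 with a median of 0.17.

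No difference between the groups was detected in the drug's own targets. FKBP12 (Fkbp1a), which binds tacrolimus, lay between 74.8 and 90 FPKM (median 76.5) in the tacrolimus kidneys and between 71.2 and 95.2 FPKM (median 74.8) in the vehicle kidneys. The 95% interval of its log2 fold change was -0.15 to 0.17. The catalytic calcineurin subunits Ppp3ca and Ppp3cb averaged 13 ± 0.697 against 12.2 ± 1.38 FPKM and 17.9 ± 1.31 against 17 ± 1.47 FPKM. The regulatory subunit Ppp3r1 averaged 37.4 ± 5.04 against 35.8 ± 2.68 FPKM. Intervals of the log2 fold change were -0.07 to 0.25 for Ppp3ca, -0.07 to 0.20 for Ppp3cb and -0.12 to 0.22 for Ppp3r1. Rcan1, a calcineurin inhibitor that NFAT itself switches on, averaged 56.5 ± 13.4 against 67.2 ± 14.2 FPKM (log2 fold change -0.25, 95% interval -0.58 to 0.08, limma adjusted p = 0.713). None of 14 calcineurin and NFAT genes and none of 13 FK506-binding protein genes was called, with medians of 0.02 and -0.09.

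Injury, fibrosis and stress lists held no called gene. Kidney injury molecule 1 (Havcr1), a marker of damaged proximal tubule, averaged 1.43 ± 1.52 against 0.329 ± 0.165 FPKM, the tacrolimus values running from 0.244 to 4.39 FPKM (limma adjusted p = 0.465). Of 19 tubular injury genes tested, 12 lay above 0 and the median was 0.12. Connective tissue growth factor (Ccn2) averaged 28.2 ± 7.88 against 46.4 ± 31.7 FPKM and Tgfb3 1.75 ± 0.289 against 2.47 ± 0.302 FPKM (limma adjusted p = 0.792 and 0.147). The 19 genes tested on the TGF-beta and fibrosis list had a median of 0.02, and 12 of the 15 collagens lay below 0 with a median of -0.10. The chaperone Hspa5 averaged 211 ± 21.4 against 264 ± 87.4 FPKM, on an endoplasmic reticulum stress list of 19 genes with a median of -0.11. The immediate early gene Egr1 averaged 7.36 ± 5.02 against 2.8 ± 0.63 FPKM (log2 fold change 0.99, limma adjusted p = 0.191).

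Immune cell lists held no called gene either. Of 13 T and NK cell genes tested, the target cells of the drug's immunosuppression, 11 lay below 0 with a median of -0.14, and Cd3g, a T cell receptor subunit, averaged 1.12 ± 0.501 against 2.04 ± 0.467 FPKM (limma adjusted p = 0.17). The 3 of 5 neutrophil genes that passed the filter had the lowest median of the lists, -1.08, at levels of 0.844 ± 0.52 against 4.27 ± 5.39 FPKM for S100a9 (limma adjusted p = 0.503). The 12 macrophage genes had a median of -0.13 and the 18 interferon and antigen presentation genes a median of 0.07. Red blood cell genes, which report blood left in the organ, had a median of -0.31 with none called.

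Other metabolic lists held no called gene. None of 20 cholesterol synthesis genes, 18 fatty acid oxidation genes, 8 gluconeogenesis and ammonia genes or 19 nuclear-encoded respiratory chain genes was called. The medians of these lists were -0.12, -0.06, 0.09 and -0.02. The fatty acid oxidation regulator Pdk4 averaged 4 ± 0.931 against 6.6 ± 2.52 FPKM and the mitochondrial coactivator Ppargc1a 13.6 ± 1.59 against 17.6 ± 3.17 FPKM (limma adjusted p = 0.379 and 0.411). Mitochondrially encoded genes took 12.4 ± 1.88% of fragments with tacrolimus and 11.9 ± 1.13% with vehicle (SD, n = 6, exact 2-sided permutation p = 0.606). In all, 41 of the 53 lists held no called gene, and 18 of the 45 called genes lay on a list.

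**Figure D5:**
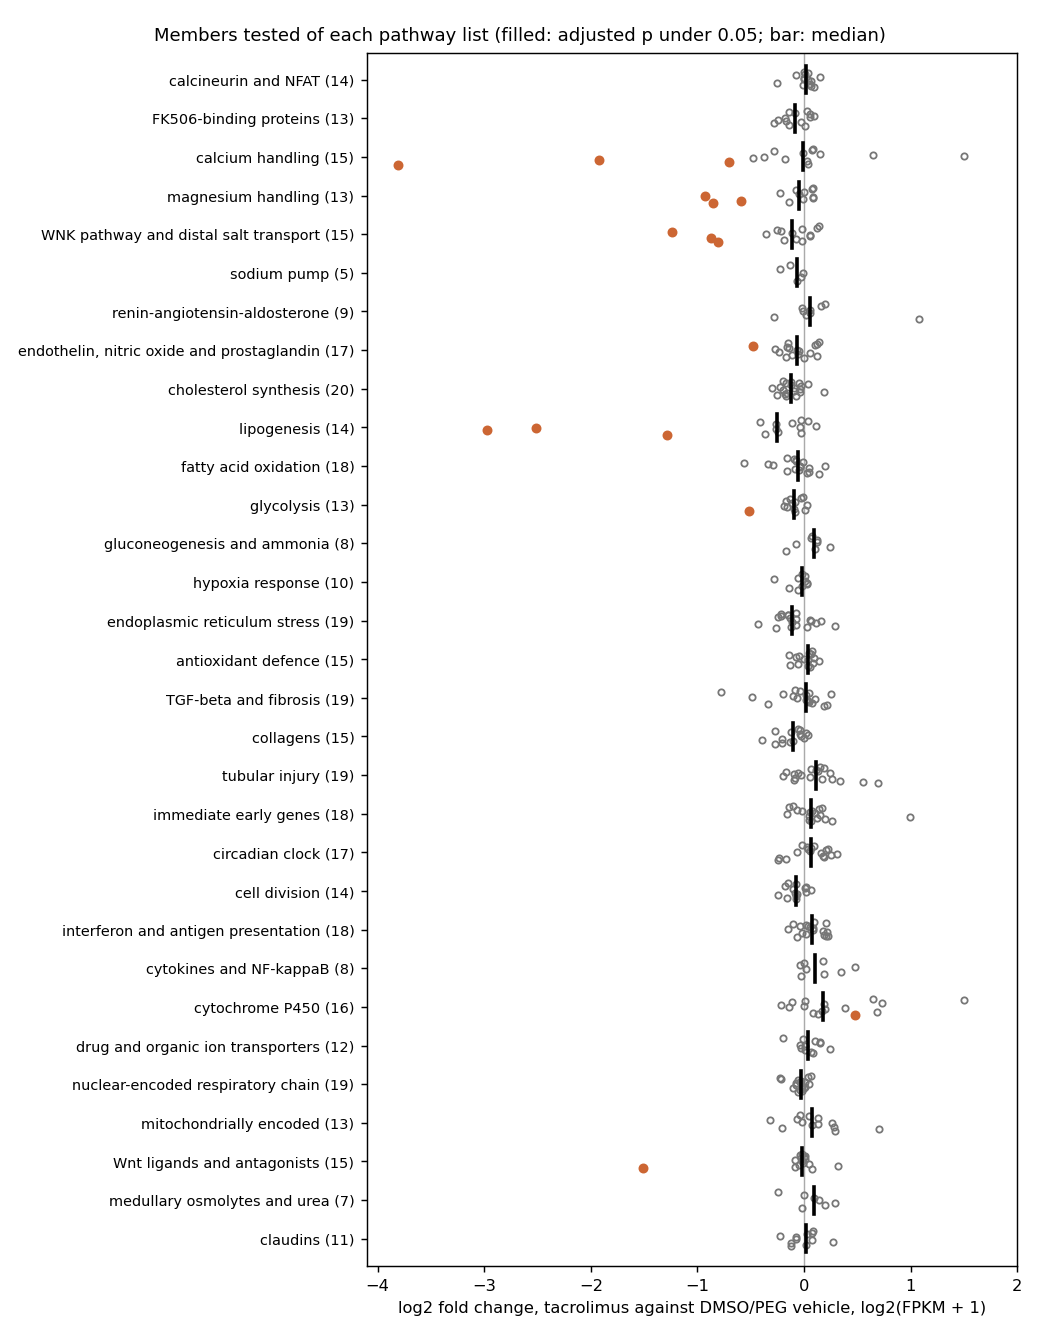
Log2 fold change between tacrolimus and vehicle kidneys of every tested member of 31 pathway lists, with the number tested in brackets, called genes filled and a bar at each median. Filled points lie to the left of 0 in the rows for calcium, magnesium, WNK pathway, prostaglandin, lipogenesis, glycolysis and Wnt genes, and to the right in the cytochrome P450 row, where Cyp2e1 stands at 0.48.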

How the data were processed

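Total RNA of whole kidneys was sequenced, and per the submitters' processing notes HISAT2 and the rat build rn6 were used. The counting tool, annotation release and strand setting are not given in the sources used here. The deposited values are FPKM per gene, which the authors had scaled between libraries. Multiplied by gene length, 100% of values above 0 gave whole fragments within 0.01, so depth per library could be recovered. Coordinates are as deposited, and promoter sequences are credited to RefSeq (GRCr8). Columns of no sample numbered 0.

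Genes with at least 10 fragments at the median library size in 6 libraries and 15 in all (15479, of which 14599 protein-coding) were compared with limma 3.58.1 in R 4.3.3 on log2(FPKM + 1), with group as the term and an empirical Bayes trend, and adjusted over all of them. Library measures used an exact permutation test over 924 arrangements (smallest p 0.00216). On simulated data of the same 15479 genes, 79 of 100 genes changed 2-fold and 92 of 100 changed 4-fold were recovered, with 10 false among 181 calls. The simulation drew genes independently and gave both groups the spread of the vehicle kidneys, so recovery in the real data may be lower. Named genes are every called protein-coding gene, the called members of each list with up to 3 of the smallest p and up to 3 of the highest level, and the drug's targets; Wnk4 and Plin1 were named after their values were seen. The comparison and the 53 lists were chosen with earlier results of these data known. Alternatives changed the pseudocount to 0.1, the filter, the trend, the scaling, the model (voom), the replicate block and the genes adjusted over, and left out each library in turn. Leaving out 2 libraries together was added after seeing the data. Counts over cell type and pathway lists carry no test.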

Additional observations from a re-analysis of the deposited data

Results flagged for a closer look

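A kidney was singled out where it lay farther from the nearest of its group, relative to the group's range, than Dixon's 95% limit allows, which chance does in about 1 of 20 groups; of 108 groups examined, 10 had such a kidney. Tacrolimus replicate 6 had the highest Calb1 of its group, 14.9 FPKM where the others lay at 12.3 to 13.1, and the fewest genes with at least 1 fragment, 17880. Tacrolimus replicate 3 had the highest Scd of its group at 7.92 FPKM (others 0.21 to 1.43), the highest P2ry1 at 2.4 FPKM (others 1.56 to 1.81), the highest Trim66 at 0.795 FPKM (others 0.409 to 0.53) and the single Otop1 fragment of the group, 0.0141 FPKM. Tacrolimus replicate 1 had the lowest Synpo2l, 0.309 FPKM (others 0.397 to 0.447). Among vehicle kidneys, replicate 3 had the lowest Folh1 (18.0 FPKM, others 20.8 to 21.6), replicate 2 the highest Trim66 (1.6 FPKM, others 0.948 to 1.18) and replicate 1 the highest Otop1 (0.458 FPKM, others 0.197 to 0.293).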

How the results depend on the processing

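Of the 45 called protein-coding genes, 26, all lower, were called in each of the 23 alternatives that kept them in the test, 19 lost the call in at least 1, and 0 changed sign. Leaving out each library in turn gave 34 to 47 called genes, 31 to 47 lower and 0 to 3 higher. Voom with sample quality weights called 118, 93 lower and 25 higher, with all 45 among them, and voom without weights called 47 (39 shared); the cause was not tested. Rescaling to TPM or to the upper quartile called 7 genes higher in each case. With the replicate number as a block, 41 genes were called lower and 0 higher, 33 of them among the 45, and the adipocyte list had 5 called. With the 2 libraries that stood apart left out, the adipocyte list had 1 called. Correlations of same-numbered kidneys ran from -0.15 to 0.18, and 2 of 6 were over 0.1. Of the 6 tacrolimus kidneys, 2 correlated best with the vehicle kidney of their own number. The labels do not say what the numbers mark, and 6 correlations cannot tell whether same-numbered kidneys shared a day or litter. Depth limits genes such as Otop1, with 1 and 106 fragments per group, and a gene that was not called was not shown to be unchanged.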

Other observations

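Several groups not described above also held no called gene. The sodium pump's 5 genes had a median log2 fold change of -0.07. Among 17 circadian clock genes, 12 lay above 0, and the clock output factor Hlf averaged 32.7 ± 3.5 FPKM with tacrolimus against 27.9 ± 1.89 FPKM with vehicle (SD, n = 6 each, limma adjusted p = 0.343). The tight junction protein Cldn4 of the collecting duct averaged 23.1 ± 3.36 against 18.9 ± 2.77 FPKM on a list of 11 claudins with a median of 0.02. The osmotic chaperone Hspa4l averaged 2.64 ± 0.162 against 3.31 ± 0.263 FPKM (limma adjusted p = 0.147). The 12 genes tested on a list of drug and organic ion transporters had a median of 0.04.

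Among markers of attached tissue other than fat, those of the adrenal gland were low and those of urothelium were higher. The summed FPKM of adrenal genes was 1.01 ± 0.215 with tacrolimus and 1.58 ± 0.435 with vehicle (SD, n = 6, exact 2-sided permutation p = 0.026, adjusted p = 0.117), and that of urothelial genes was 17.9 ± 5.25 and 22.6 ± 8.81 (exact permutation p = 0.301). Beyond the protein-coding genes, 2 long noncoding RNAs were called lower. AABR07018447.1 averaged 1.17 ± 0.627 against 7.74 ± 1.7 FPKM, and LOC102549506, on the same chromosome as Klhl3, averaged 4.82 ± 0.3 against 8.31 ± 0.588 FPKM (limma adjusted p = 9.93e-05 and 9.58e-05).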
